A study of Homo sapiens with 96 samples.

Results

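The 34 genes described here are genes of the lysosome and of its upkeep, among them the glycoprotein gene GPNMB, read in cultured MDA-MB-231 cells with and without the MEK inhibitor U0126. The members were taken by name: every probe set that the array annotation gives to 1 of the 34 symbols was used. The list of names was chosen with earlier results of these data known, so shares of members beside all probe sets are descriptive. All 34 symbols had a probe set, and the members held 64 of the 22406 probe sets that are not array controls. Of these 22406 probe sets, 19415 were annotated to 1 gene symbol, covering 11940 genes. A single probe set read 20 of the members, and the other 14 members had several, up to 8 for IDS. Probe sets of 1 gene share its transcripts and are not independent. Where a gene had several, the one with the largest SD over all arrays is named as its lead probe set, and the lead value is given unless another is named.

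MDA-MB-231 is an established human breast cancer line, and U0126 is a small molecule that blocks MEK, the kinase that activates ERK. The question put to the data was whether MEK inhibition raises lysosomal genes. There were 96 arrays, 32 in each of 3 series, of which 2D03 and 2D04 were grown in 2D and 3D04 in 3D. All cells had been kept in low serum for 24 h before treatment. The arms were U0126 with EGF (10 uM U0126 given 30 min before 10 ng/ml EGF, called U0126 here), DMSO vehicle with EGF (DMSO-EGF), EGF alone, and untreated control, each at 0.5, 1, 4, 8, 12, 24 and 48 h. At 0 h there were U0126 and DMSO arrays without EGF time and 2 control arrays per series. Every U0126 array after 0 h had therefore also received EGF, and U0126 was the only inhibitor, so what it did through MEK cannot be told apart from what else the compound did. Each arm had 1 array per series and time. Times were grouped into 3 windows: early at 0.5 and 1 h, middle at 4, 8 and 12 h, and late at 24 and 48 h. Per arm these held 4, 6 and 4 arrays in 2D and 2, 3 and 2 in 3D, and the times of a window served there as its repeats. The labels do not say whether repeats were separate cultures, so the p-values measure the spread between these arrays. Values are on a presumed log2 scale and relative to an unknown reference for each probe set, so a negative value means below that reference and no absolute level is given.

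Lysosomes are the acidic compartments in which cells break down proteins, glycans, lipids and nucleic acids delivered by endocytosis and autophagy. Their soluble enzymes work at the low pH that the vacuolar H+-ATPase (V-ATPase) maintains, inside a membrane rich in glycosylated proteins such as LAMP1 and LAMP2. Transcription of many lysosomal genes is driven by TFEB, TFE3 and MITF, the MiT/TFE factors, which bind E-box sequences of the CACGTG and CATGTG types, the first often within a longer motif called CLEAR. GPNMB is a transmembrane glycoprotein of melanosomes, lysosomes and phagocytic cells and a known MITF target in pigment cells, and it has been studied in aggressive breast cancer.

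Promoter sequences were read for such E-boxes, because the members are known for a shared class of regulatory motif. RefSeq windows of 300 bases (250 before the transcription start and 50 after, GRCh38.p14) were at hand for 23 of the 34 members. The members without one were ASAH1, ATP6V1A, ATP6V1B2, ATP6V1H, CTSB, CTSK, HEXA, LAMP2, MANBA, PSAP and SGSH. On both strands, CACGTG was found in 8 of 23 member windows (34.8%) and in 8.88% of 15842 protein-coding promoters. The longer TCACGTG, which contains CACGTG, was in 7 (30.4%), against 4.78% of all promoters. TCATGTG, which does not overlap those, was in 5 (21.7%), against 2.27%. The windows with CACGTG were those of ATP6V0D1, CD63, CTSA, CTSD, GAA, LAMP1, MCOLN1 and NEU1, and those with TCATGTG were those of CD63, CTSA, GPNMB, SCARB2 and TPP1. The 250 bases upstream of the start of 4 members are given below, 5′ to 3′ on the gene's own strand, with the motif in capitals. GPNMB and TPP1 show TCATGTG (or CACATGA, the same motif on the other strand) at 2 places each, and CTSD and MCOLN1 show CACGTG at 1 and 2 places. GPNMB (chr7:23246525-23246774, plus strand), CTSD (chr11:1763928-1764177, minus strand) and TPP1 (chr11:6619423-6619672, minus strand) were called higher with U0126 in both cultures. MCOLN1 (chr19:7522374-7522623, plus strand) was called lower with U0126 in 3D. A match describes these letters and not a bound site.
GPNMB: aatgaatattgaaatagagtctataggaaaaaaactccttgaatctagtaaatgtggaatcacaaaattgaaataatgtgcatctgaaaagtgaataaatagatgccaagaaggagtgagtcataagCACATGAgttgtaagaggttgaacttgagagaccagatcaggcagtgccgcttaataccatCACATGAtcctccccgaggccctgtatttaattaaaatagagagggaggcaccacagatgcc
TPP1: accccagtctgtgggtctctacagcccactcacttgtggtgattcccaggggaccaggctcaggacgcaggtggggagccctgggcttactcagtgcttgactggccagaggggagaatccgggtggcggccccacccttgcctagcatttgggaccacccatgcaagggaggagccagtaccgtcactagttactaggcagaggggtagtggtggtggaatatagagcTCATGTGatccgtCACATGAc
CTSD: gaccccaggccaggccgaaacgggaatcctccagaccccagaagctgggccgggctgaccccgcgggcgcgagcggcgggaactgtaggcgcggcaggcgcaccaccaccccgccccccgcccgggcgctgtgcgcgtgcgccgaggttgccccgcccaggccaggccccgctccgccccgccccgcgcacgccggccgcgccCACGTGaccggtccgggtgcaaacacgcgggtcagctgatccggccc
MCOLN1: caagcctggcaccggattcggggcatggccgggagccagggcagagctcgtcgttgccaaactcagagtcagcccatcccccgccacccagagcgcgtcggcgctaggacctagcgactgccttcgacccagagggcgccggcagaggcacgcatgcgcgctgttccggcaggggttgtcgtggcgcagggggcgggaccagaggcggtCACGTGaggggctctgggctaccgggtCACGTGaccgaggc

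Readouts of the ERK pathway were read first, as a check of the inhibitor. The lead probe sets of DUSP6, a phosphatase of ERK, SPRY4, a feedback inhibitor of receptor signalling, and EGR1, an immediate early transcription factor, fell with U0126 in the late window. The log2 differences between U0126 and DMSO-EGF were -2.60 in 2D and -2.40 in 3D for DUSP6, -2.76 and -2.23 for SPRY4, and -3.31 and -4.26 for EGR1. Array quality differed at 1 place that touches the members. The actin 5′ probe set lay 1.26 and 1.08 log2 units below the 3′ one on the U0126 arrays of series 2D03 at 8 and 12 h, a sign of shortened RNA, while this difference lay between -0.36 and 0.31 on the other 94 arrays. On the same arrays several members were low against DMSO-EGF of that series and time: LAMP1 by -1.23 and -1.28, SCARB2 by -1.24 and -0.98, PSAP by -1.0 and -0.96 and CTSD by -0.63 and -0.70. The median over the 64 member probe sets was -0.22 and -0.14 there, against 0.065 and 0.08 at 8 and 12 h in series 2D04. Whether RNA quality set these values was not tested, and counts of the middle window and of 8 and 12 h are given with and without those arrays.

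Members of every role were higher with U0126 than with DMSO-EGF at 24 and 48 h in both cultures, and GPNMB moved most. In 2D, 21 of 64 member probe sets (16 genes) rose and 0 fell in the late window (limma, adjusted p under 0.05 over all 22406 probe sets). Over all probe sets, 5.34% rose and 4.99% fell in this comparison. The median over member probe sets was 0.23 on the log2 scale, against 0.005 over all probe sets. In 3D, 26 member probe sets (18 genes) rose and 6 (5 genes) fell, while 16.2% of all probe sets rose and 13.6% fell. The median over members there was 0.227, against 0.03 over all. Repeat numbers pair the 2D arrays through their series, and with this replicate block 29 member probe sets rose and 3 fell in 2D, while 10.5% of all probe sets rose and 10.4% fell. Of 34 lead probe sets, 19 lay above DMSO-EGF at all 6 combinations of series and late time and 3 lay below it at all 6 (GUSB, MCOLN1 and NPC1). Over all 11940 lead probe sets, 15.6% lay above and 13.2% below at all 6. In the middle window, 2 members were above at all 9 combinations (GPNMB and LAMP2) and 1 below (NPC1), against 3.77% and 6.16% of all. In the early window 0 members kept a sign, against 1.39% above and 1.87% below over all. The arrays measured RNA of whole cultures, so more RNA per cell and more cells carrying the RNA cannot be told apart.

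**Figure D1:**
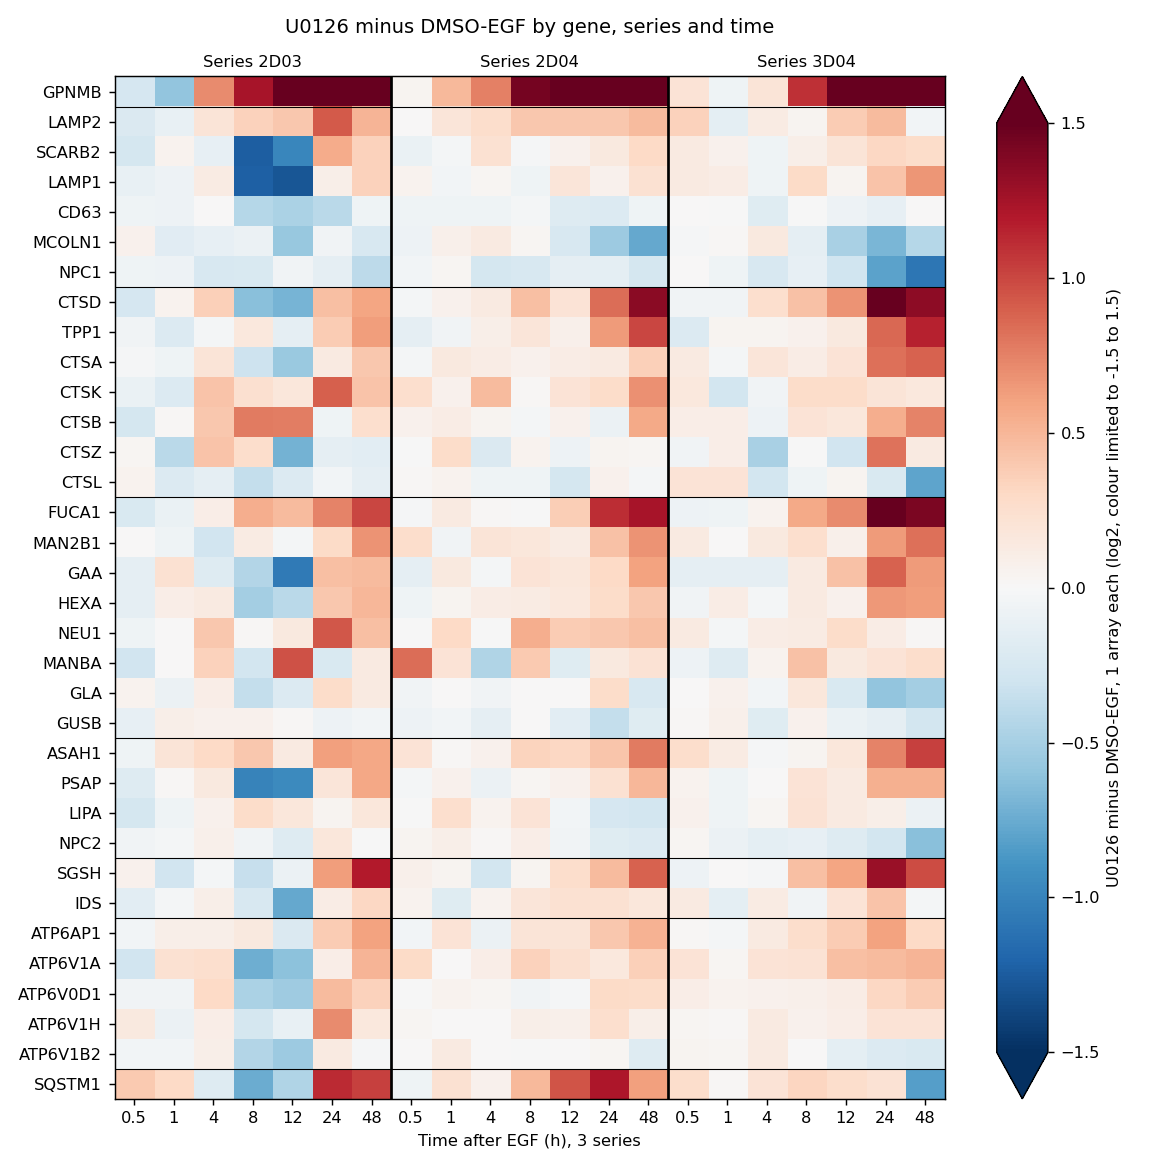
Difference between U0126 and DMSO-EGF (log2, colour scale) for the lead probe set of each of the 34 members (rows, grouped by role) at each time (columns, h) of series 2D03, 2D04 and 3D04. The differences are small at 0.5 and 1 h, several members are low at 8 and 12 h in 2D03, and GPNMB is highest at 48 h in 2D, at 2.99 in 2D03 and 2.78 in 2D04.

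GPNMB rose more than 5-fold in both cultures late, and it was also higher in the middle window. In 2D its U0126 arrays read 0.39 and 0.81 at 24 h and 1.37 and 1.78 at 48 h (series 2D03 before 2D04), against DMSO-EGF values of -1.37 and -1.07 at 24 h and -1.62 and -1.0 at 48 h. In 3D the U0126 arrays read 0.49 and 0.46 at 24 and 48 h, against -2.07 and -2.29 with DMSO-EGF. Every late U0126 array lay above every late DMSO-EGF array of its culture, and the 3 arms without inhibitor stayed between -2.55 and -0.81 at those times. The late difference was 2.35 ± 0.19 in 2D (SE, 4 arrays per arm), a 5.11-fold change with an adjusted p of 2.4e-11. In 3D it was 2.65 ± 0.24 (SE, 2 arrays per arm), a 6.30-fold change with an adjusted p of 7.9e-09. The middle-window differences of GPNMB were 1.26 ± 0.16 in 2D (adjusted p = 6.9e-07) and 0.95 ± 0.19 in 3D (adjusted p = 0.0022). GPNMB passed in these 4 comparisons under every alternative that was run.

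GPNMB was followed over time with U0126. In series 2D04 the U0126 arrays read -1.78 at 0 h, -1.29 at 0.5 h, -0.97 at 1 h, -0.33 at 4 h, 0.30 at 8 h and 0.50 at 12 h before the late values above. In 2D03 they read -1.14, -1.09, -1.24, 0.02, 0.45 and 0.18 at the same times, and in 3D04 -2.41, -1.92, -2.19, -1.60, -0.88 and -0.47. All 9 middle-window differences from DMSO-EGF were above 0 (0.19 to 1.76), while the 6 early ones ranged from -0.59 to 0.49 with 3 on each side of 0. The early comparison called 0 members in either culture, and 0.00893% of all probe sets in 2D and 0.21% in 3D. An unadjusted p under 0.05 was reached by 0 of 64 member probe sets in 2D and 1 in 3D. Of all 22406 probe sets, 250 in 2D and 769 in 3D reached it.

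**Figure D2:**
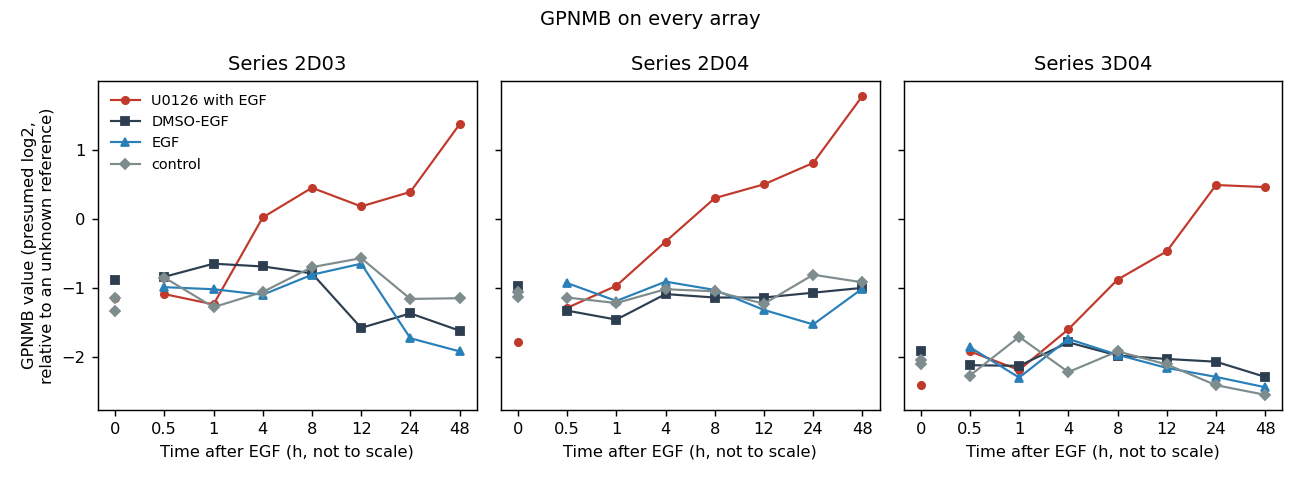
GPNMB value on each array (log2, relative to an unknown reference) against time (h, not to scale) in series 2D03, 2D04 and 3D04, by arm, where squares at 0 h are DMSO without EGF. The U0126 points leave the other arms from 4 h on in 2D and from 8 h on in 3D and end between 0.46 and 1.78 at 48 h, while the other arms lie at or below -0.92 then.

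Among the membrane proteins, LAMP2 rose in 2D, LAMP1 rose in both cultures, and NPC1 and MCOLN1 fell in 3D. LAMP2, which with LAMP1 makes up much of the protein coat of the lysosomal membrane, read 0.94 and 0.95 (2D03) and 0.60 and 0.78 (2D04) with U0126 at 24 and 48 h. With DMSO-EGF it read 0.02 and 0.44 (2D03) and 0.19 and 0.30 (2D04). No U0126 array overlapped the DMSO-EGF arrays, and LAMP2 was higher by 0.58 ± 0.10 in 2D (1.49-fold, adjusted p = 3.7e-05). In 3D the LAMP2 values were 1.18 and 0.84 with U0126, against 0.70 and 0.88 with DMSO-EGF, which overlap, and the difference of 0.22 had an adjusted p of 0.31. Of the 3 LAMP2 probe sets, which ranged from 0.02 to 0.58 in 2D and from -0.06 to 0.22 in 3D, 2 passed in 2D and 0 in 3D. For LAMP1, 1 of 4 probe sets passed in 2D (0.36, adjusted p = 0.019). It also passed in 3D (0.46, adjusted p = 2.6e-05), as did 2 others, with a lead difference of 0.55 ± 0.09 there (adjusted p = 3.1e-05). The LAMP1 lead probe set was at 0.18 in 2D and did not pass.

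NPC1, the membrane protein that exports cholesterol from lysosomes, moved against most members. With U0126 it read -0.29 and -0.41 in 3D at 24 and 48 h, against 0.51 and 0.67 with DMSO-EGF, and both of its probe sets fell (lead -0.94 ± 0.12, adjusted p = 2.5e-06). In 2D the U0126 arrays of NPC1 read 1.06 and 0.57 (2D03) and 0.43 and 0.42 (2D04), against 1.19, 0.96, 0.58 and 0.68 with DMSO-EGF. The 2D groups overlapped, although NPC1 was lower with U0126 at each series and time, and the difference of -0.23 ± 0.22 did not pass (adjusted p = 0.68; 0.023 with the replicate block). MCOLN1, a calcium-permeable channel of the lysosomal membrane, read -0.85 and -0.80 with U0126 in 3D, against -0.17 and -0.37 with DMSO-EGF, a fall of -0.56 ± 0.15 (adjusted p = 0.0048; 0.071 without the 24 h DMSO-EGF array). Its 2D difference of -0.40 did not pass (adjusted p = 0.29; 0.00078 with the replicate block). SCARB2, the receptor that carries glucocerebrosidase to lysosomes, was higher in 3D by 0.30 (adjusted p = 0.0084) through 1 of its 3 probe sets. That SCARB2 call was lost without the 24 h U0126 array (0.12) or the 48 h DMSO-EGF array (0.11). CD63, a tetraspanin of late endosomes, was at -0.19 in 2D (adjusted p = 0.18; 0.040 with the replicate block) and -0.06 in 3D.

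The proteases split: CTSD and TPP1 rose in both cultures, CTSK in 2D, CTSA and CTSB in 3D, and CTSL fell in 3D. CTSD encodes cathepsin D, the main aspartic protease of lysosomes. Its U0126 arrays read 0.65 and 0.44 in 3D at 24 and 48 h, against -1.14 and -0.90 with DMSO-EGF, a difference of 1.56 ± 0.14 (2.96-fold, adjusted p = 7.2e-09). In 2D they read -1.04 and -0.24 (2D03) and -0.16 and 0.48 (2D04), against -1.49 and -0.83 (2D03) and -1.0 and -0.87 (2D04). The 2D groups of CTSD overlapped through the 24 h array of 2D03, but U0126 was higher at each series and time, by 0.81 ± 0.19 on average (1.75-fold, adjusted p = 0.0033). Without the 2D04 U0126 array at 24 h or 48 h the adjusted p was 0.061 or 0.056, and in series 2D03 alone CTSD was at 0.52 with an adjusted p of 0.41.

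TPP1, a tripeptidyl peptidase, read -0.19 and 0.04 (2D03) and -0.05 and 0.55 (2D04) with U0126, against -0.57, -0.59, -0.69 and -0.45 with DMSO-EGF. The TPP1 groups did not overlap in 2D, nor in 3D, where U0126 arrays read 1.09 and 1.45 against 0.23 and 0.29. The differences were 0.66 ± 0.17 in 2D (adjusted p = 0.0086; 0.090 without the 48 h U0126 array of 2D04) and 1.01 ± 0.16 in 3D (adjusted p = 3.8e-05), and 3 of the 4 TPP1 probe sets passed in each culture. CTSK, cathepsin K, a collagen-degrading protease known from osteoclasts, read 1.07 and 0.43 (2D03) and 0.23 and 0.63 (2D04) with U0126, against 0.17, 0.00, -0.04 and -0.05 with DMSO-EGF. These did not overlap, and CTSK was higher by 0.57 ± 0.14 (adjusted p = 0.0054; 0.12 without the 24 h U0126 array of 2D03). In 3D the CTSK arrays overlapped (0.30 and 0.53 with U0126, 0.11 and 0.37 with DMSO-EGF). CTSA, the protective protein of galactosidase and neuraminidase, read 0.60 and 0.65 with U0126 in 3D, against -0.23 and -0.24 with DMSO-EGF, a difference of 0.86 ± 0.08 (adjusted p = 1.7e-08). In 2D CTSA was at 0.25 (adjusted p = 0.17; 0.027 with the replicate block). In 3D, CTSB, cathepsin B, was higher by 0.64 ± 0.10 (adjusted p = 2.6e-05) on 1 of its 4 probe sets, the other 3 lying between 0.23 and 0.38 without passing, and CTSL, cathepsin L, was lower by -0.51 ± 0.11 (adjusted p = 8.9e-04; 0.062 without the 48 h U0126 array). In 2D, CTSB was at 0.17 and CTSL at -0.04. CTSZ passed in neither culture with either of its 2 probe sets.

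Of the 8 glycosidases, 4 rose in 2D (FUCA1, GAA, MAN2B1 and NEU1) and 4 in 3D (FUCA1, GAA, HEXA and MAN2B1), where GLA fell. FUCA1, the lysosomal alpha-fucosidase, had the largest glycosidase difference in each culture. Its U0126 arrays read 0.32 and 1.09 (2D03) and 0.91 and 1.72 (2D04) at 24 and 48 h, against -0.42, 0.09, -0.20 and 0.48 with DMSO-EGF. In 3D they read 1.49 and 1.37, against -0.01 and -0.04. The FUCA1 groups overlapped in 2D, where both arms were higher at 48 h than at 24 h, and did not overlap in 3D. The differences were 1.02 ± 0.16 in 2D (2.03-fold, adjusted p = 2.4e-05) and 1.46 ± 0.15 in 3D (2.74-fold, adjusted p = 5.0e-08). MAN2B1, an alpha-mannosidase, was higher by 0.52 in 2D (adjusted p = 0.018) and 0.73 in 3D (adjusted p = 1.1e-05). GAA, the acid alpha-glucosidase that degrades glycogen, was higher by 0.46 in 2D (adjusted p = 0.029) and 0.76 in 3D (adjusted p = 0.0012). The 2D calls of MAN2B1 and GAA were weak ones: leaving out single late U0126 or DMSO-EGF arrays gave adjusted p-values up to 0.13 for MAN2B1 and 0.15 for GAA, and the 3D call of GAA had 0.063 without the 24 h DMSO-EGF array.

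HEXA, a hexosaminidase subunit, was higher in 3D on 1 of its 2 probe sets by 0.64 ± 0.08 (adjusted p = 2.5e-06), while the other stood at 0.04 (adjusted p = 0.82). In 2D these HEXA probe sets were at 0.40 (adjusted p = 0.19; 0.013 with the replicate block) and 0.20 (adjusted p = 0.63). NEU1, the lysosomal sialidase, read -0.32 and 0.06 (2D03) and -0.09 and -0.03 (2D04) with U0126, against -1.25, -0.39, -0.50 and -0.48 with DMSO-EGF. The NEU1 groups did not overlap in 2D, where NEU1 was higher by 0.56 ± 0.14 (adjusted p = 0.0063; 0.12 without the 24 h DMSO-EGF array of 2D03), and it was at 0.07 in 3D. GLA, the alpha-galactosidase A gene, read -1.02 and -1.15 with U0126 in 3D, against -0.43 and -0.64 with DMSO-EGF, a fall of -0.55 ± 0.11 (adjusted p = 3.4e-04). Its 2D difference was 0.11 and did not pass. GUSB, the beta-glucuronidase gene often used as a reference gene, was below DMSO-EGF at all 6 late combinations (-0.36 to -0.04) without passing in either culture, and MANBA, a beta-mannosidase, passed in neither.

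ASAH1, SGSH and, in 3D, PSAP rose among the genes of lipid and sulfate breakdown, while NPC2 fell in 3D. ASAH1, acid ceramidase, read -0.07 and 0.25 (2D03) and 0.02 and 0.57 (2D04) with U0126, against -0.69, -0.33, -0.40 and -0.21 with DMSO-EGF. In 3D it read 0.71 and 0.98, against -0.03 and -0.05. The ASAH1 groups overlapped in neither culture, and the differences were 0.60 ± 0.08 in 2D (1.52-fold, adjusted p = 1.9e-06) and 0.88 ± 0.10 in 3D (1.85-fold, adjusted p = 1.5e-07). Of its 4 probe sets, 2 passed in each culture and the others lay lower, down to 0.05 in 2D and -0.14 in 3D. PSAP, the precursor of the saposins that present lipids to hydrolases, was higher by 0.53 in 3D (adjusted p = 5.1e-04; both of its probe sets passed), and at 0.37 in 2D (adjusted p = 0.25; 0.046 with the replicate block). NPC2, the soluble partner of NPC1, read 0.24 and 0.08 with U0126 in 3D, against 0.52 and 0.71 with DMSO-EGF, a fall of -0.46 ± 0.10 (adjusted p = 0.0016). In 2D NPC2 read 0.08, 0.12, -0.02 and 0.23 with U0126, against -0.09, 0.13, 0.16 and 0.43, which overlap. LIPA, the acid lipase of cholesteryl esters, was at -0.08 in 2D and 0.00 in 3D.

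SGSH, a sulfatase of heparan sulfate breakdown, read -0.23 and 0.24 (2D03) and -0.10 and 0.36 (2D04) with U0126, against -0.86, -0.95, -0.57 and -0.53 with DMSO-EGF. In 3D it read 0.77 and 0.46, against -0.53 and -0.52. SGSH did not overlap between the arms in either culture and was higher by 0.80 ± 0.21 in 2D (adjusted p = 0.0099) and 1.14 ± 0.13 in 3D (adjusted p = 3.9e-07). Its 2D adjusted p was 0.052 or 0.067 without the DMSO-EGF array of 2D03 at 24 h or 48 h. IDS, the iduronate sulfatase, had 8 probe sets between -0.03 and 0.24 in 2D and between -0.10 and 0.20 in 3D, and 0 passed.

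**Figure D3:**
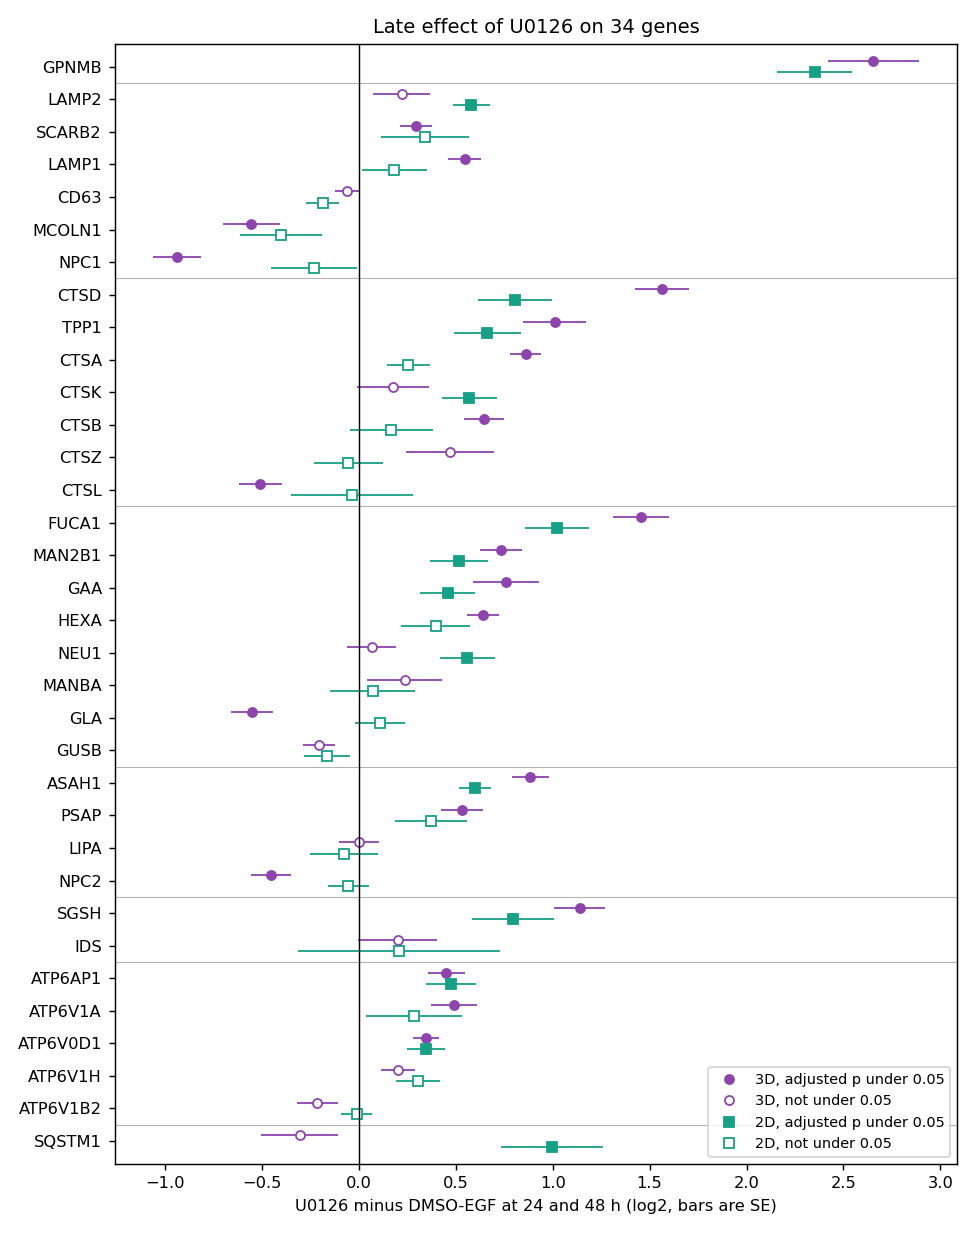
Late difference between U0126 and DMSO-EGF (log2, points, with SE bars) for the lead probe set of each member in 3D (upper points) and 2D (lower points), with calls at an adjusted p under 0.05 marked. GPNMB stands at 2.65 and 2.35, most members lie to the right of 0 in both cultures, and NPC1, MCOLN1, GLA, CTSL and NPC2 lie to the left in 3D.

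Among the V-ATPase genes, the subunits ATP6AP1, ATP6V0D1 and ATP6V1A rose in both cultures, while ATP6V1B2 and ATP6V1H passed in neither. ATP6V1A, the catalytic subunit of the cytosolic V1 sector, passed in 2D through 1 of its 2 probe sets. That ATP6V1A probe set read -0.16, -0.18, -0.33 and 0.10 with U0126, against -0.88, -0.68, -0.56 and -0.34 with DMSO-EGF, a difference of 0.47 ± 0.09 (adjusted p = 0.00014). The arms of this probe set did not overlap. The lead ATP6V1A probe set was at 0.28 in 2D (adjusted p = 0.64) and passed in 3D at 0.49 (adjusted p = 0.0028; 0.063 without the 48 h DMSO-EGF array). ATP6AP1, an accessory subunit, was higher by 0.47 in 2D (adjusted p = 0.013) and 0.45 in 3D (adjusted p = 8.0e-04), and ATP6V0D1, of the membrane sector, by 0.34 in 2D (adjusted p = 0.018) and in 3D (adjusted p = 3.2e-04). Leaving out single 2D arrays gave adjusted p-values up to 0.11 for ATP6AP1 and 0.13 for ATP6V0D1. ATP6V1H was at 0.30 in 2D (adjusted p = 0.090; 0.0039 with the replicate block).

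SQSTM1 encodes p62, the receptor that links ubiquitinated cargo to autophagosomes, and its 2 probe sets parted in 3D. One of them read 1.84 and 1.16 (2D03) and 1.22 and 0.70 (2D04) with U0126, against 1.00, 0.27, 0.25 and -0.10 with DMSO-EGF, and was higher by 0.88 ± 0.20 (adjusted p = 0.0025). In 3D that SQSTM1 probe set read 0.45 and 0.40, against -0.27 and 0.12, and was higher by 0.50 ± 0.12 (adjusted p = 0.0020). The lead probe set of SQSTM1 was higher in 2D by 0.99 ± 0.26 (adjusted p = 0.0091) and at -0.30 in 3D (adjusted p = 0.29), where its arrays overlapped. The 2D groups of both SQSTM1 probe sets overlapped because the arrays at 24 h of 2D03 were high in both arms, at 2.78 with U0126 and 1.66 with DMSO-EGF on the lead probe set. Its 2D adjusted p was 0.12 without the 24 h U0126 array of 2D03 and 0.13 without the 24 h DMSO-EGF array of 2D04.

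**Figure D4:**
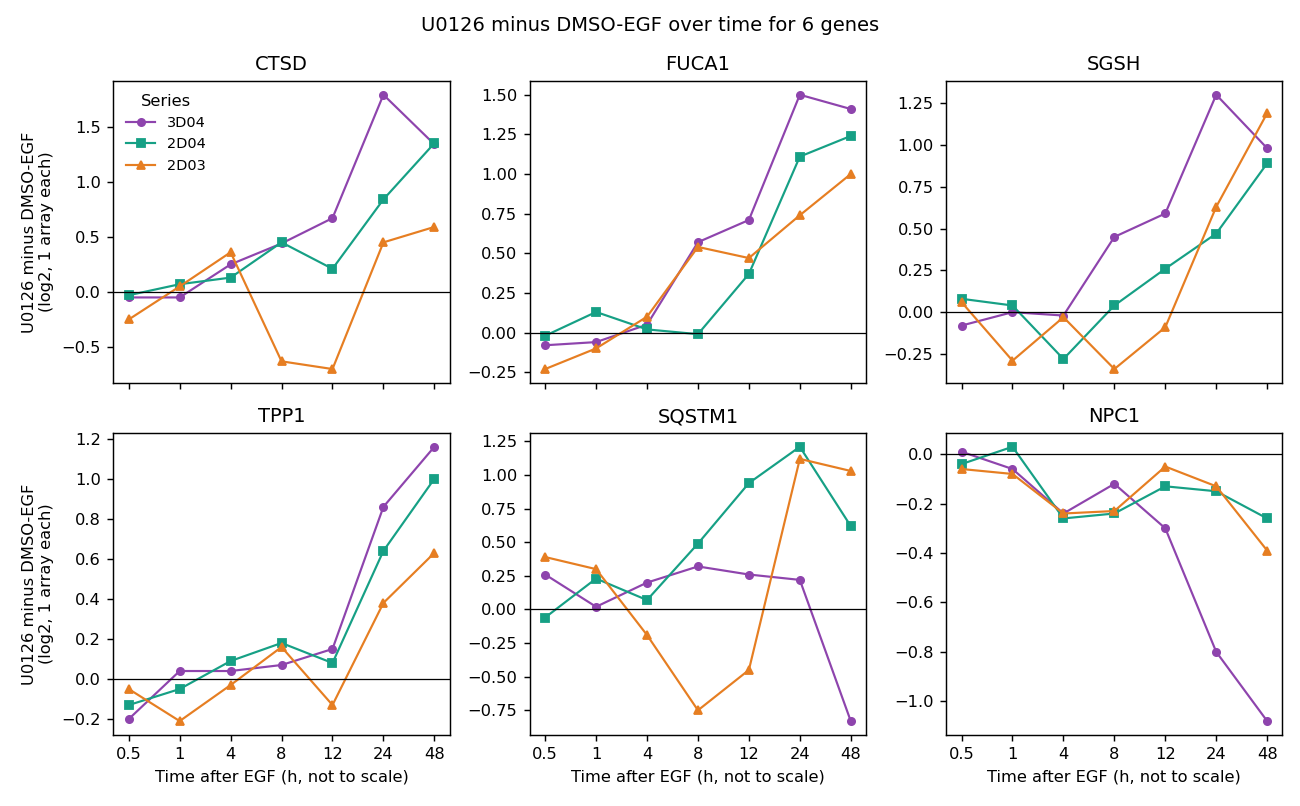
Difference between U0126 and DMSO-EGF (log2) for the lead probe sets of CTSD, FUCA1, SGSH, TPP1, SQSTM1 and NPC1 against time (h, not to scale), by series. CTSD, FUCA1, SGSH and TPP1 lie above DMSO-EGF in every series at 24 and 48 h, whereas NPC1 lies below it in every series then.

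By time, the members separated from the vehicle mostly at 24 and 48 h. In 2D, 0 member probe sets passed at 0.5, 1 or 4 h, where 0%, 0.00446% and 0.433% of all probe sets did. GPNMB was the 1 member that rose at 8 h (1.34, adjusted p = 0.0052) and at 12 h (1.70, adjusted p = 2.6e-04), and 0 fell. At those times 0.326% and 0.37% of all probe sets rose, and 1.05% and 1.2% fell. With the replicate block 3 rose and 0 fell at 8 h (1.8% and 3.9% of all), of GPNMB and ASAH1, and 4 rose and 2 fell at 12 h (1.98% and 5.99% of all). The additions at 12 h were ASAH1, LAMP1 and LAMP2 among the higher and CD63 and MCOLN1 among the lower. The LAMP1 call was not of its lead probe set, which lay at -1.28 against DMSO-EGF in 2D03 then. Without the low actin 5′ arrays, which leaves 1 U0126 array at each of these times, assumed to vary like the other groups, GPNMB was at 1.27 at 8 h (adjusted p = 0.15; 0.049 with the block) and 1.86 at 12 h (adjusted p = 0.0038). The member count was then 0 at 8 h and 1 at 12 h, or 1 and 1 with the block. At 24 h in 2D, 6 member probe sets rose and 0 fell (0.861% and 1.03% of all probe sets), of GPNMB, LAMP2, ASAH1, FUCA1 and ATP6V1A. At 48 h 12 rose and 0 fell (3.38% and 3.17% of all), which added probe sets of CTSD, TPP1, SGSH and MAN2B1. With the replicate block the counts were 17 higher and 1 lower at 24 h and 23 higher and 2 lower at 48 h, against 3.34% and 4.54%, and 7.56% and 7.45%, of all probe sets. The middle window called 5 member probe sets higher and 0 lower in 2D, of GPNMB, LAMP2, ASAH1 and ATP6V1A, where 1.78% of all probe sets rose and 4.68% fell. With the block it called 8 higher and 3 lower (CD63, LAMP1 and NPC1), against 5.58% and 11.1%, with the 4 LAMP1 probe sets spread from -0.37 to 0.19. Without the 2 U0126 arrays of low actin 5′ signal it called 4 higher and 0 lower, and 6 higher and 0 lower with the block. Of all probe sets 2.41% and 7.26% were then called in either direction. Leaving out the U0126 array of 2D03 at 4, 8 or 12 h gave 3 calls each (4.89%, 3.51% and 3.5% of all). Leaving out that of 2D04 at 8 or 12 h gave 12 (7 higher) and 11 (6 higher), with 11.9% and 12.1% of all called. The middle differences were 0.33 ± 0.08 for LAMP2 (adjusted p = 0.0053; 0.055 without the 12 h U0126 array of 2D03) and 0.26 ± 0.07 for ASAH1 (adjusted p = 0.014; 0.065 and 0.053 without the 4 h or 8 h U0126 array of 2D03).

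In 3D the middle window, where 3.64% of all probe sets rose and 4.29% fell, called 5 member probe sets higher and 0 lower. They were of GPNMB, CTSD (0.45), FUCA1 (0.44), SQSTM1 (0.34, the probe set that is not its lead) and ATP6AP1 (0.26). Single arrays moved this count and, in brackets, the share of all probe sets called in either direction, 7.93% with all arrays. The count was 1 without the DMSO-EGF array at 4 h (5.28%) or 8 h (5.74%) or the U0126 array at 12 h (4.23%). It was 2 without the U0126 array at 8 h (5.34%), 3 without the DMSO-EGF array at 12 h (5.94%) and 8 without the U0126 array at 4 h (11.4%). GPNMB passed in each of these, and the lowest differences of the others without the 12 h U0126 array were 0.27 for CTSD, 0.25 for FUCA1 and 0.17 for ATP6AP1.

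Whether the late effect exceeded the middle one was tested in 2D as a difference of differences. It was larger late for 4 member probe sets, by 1.09 ± 0.25 for GPNMB (adjusted p = 0.012), 0.77 ± 0.21 for FUCA1 (adjusted p = 0.048), 0.68 ± 0.18 for GAA (adjusted p = 0.041) and 0.47 ± 0.13 for ATP6V0D1 (adjusted p = 0.047). Over all probe sets 0.933% were higher and 0.848% lower in this test. With the replicate block 18 member probe sets were larger late and 0 smaller, against 4.63% and 3.53% of all. Without the low actin 5′ arrays 2 were, or 11 with the block, with 1.45% and 5.7% of all probe sets called in either direction. Single arrays also moved the count. It was 0 without the DMSO-EGF array of 2D03 or the U0126 array of 2D04 at 48 h (1.37% and 1.01% of all). It was 9 and 14 without the U0126 array of 2D04 at 8 or 12 h (3.38% and 4.36% of all). It was 1 without the DMSO-EGF array of 2D03 at 4, 8 or 12 h, the U0126 array of 2D03 at 12 h or that of 2D04 at 4 h. It was 2 without the U0126 array of 2D03 at 8 h, that of 2D04 at 24 h or the DMSO-EGF array of 2D04 at 48 h. For these counts of 1 and 2, between 1.19% and 1.42% of all were called.

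The member genes called higher late were compared between the cultures. Of the 16 genes higher in 2D and the 18 higher in 3D, 13 were called in both, 81.2% of the 2D genes and 72.2% of the 3D genes. Over all genes 751 were called higher in both, 84.3% of 891 in 2D and 30.9% of 2430 in 3D. The share of the 2D members thus lay near that of all genes, the share of the 3D members lay above it, and the difference in share was not tested. By probe set the member overlap was 16, which is 76.2% of 21 in 2D and 61.5% of 26 in 3D. The 13 genes were ASAH1, ATP6AP1, ATP6V0D1, ATP6V1A, CTSD, FUCA1, GAA, GPNMB, LAMP1, MAN2B1, SGSH, SQSTM1 and TPP1. These 2D calls are from the fit without the replicate block. With the block 21 member genes rose in 2D, and 1670 over all genes. CTSA, HEXA and PSAP, counted above in 3D only, passed in 2D then. The overlap was not recounted with the block. The cultures do not share arrays, but 2D has 2 series and 3D has 1, so culture and series cannot be told apart.

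The difference between the cultures was tested itself. The late effect of U0126 was larger in 3D for 2 member probe sets and smaller for 7, where 3.66% of all probe sets were larger and 4.82% smaller in 3D. It was larger for CTSD by 0.76 ± 0.25 (adjusted p = 0.047) and for CTSA by 0.60 ± 0.14 (adjusted p = 0.0015). It was smaller, or lower, in 3D for NPC1 by -0.71 ± 0.11 (adjusted p = 6.4e-06), for GLA by -0.66 ± 0.15 (adjusted p = 0.0018) and for the lead probe set of SQSTM1 by -1.30 ± 0.31 (adjusted p = 0.0031). CTSL, NPC2, NEU1 and 1 probe set of LAMP2 followed, between -0.40 and -0.49. Without the 3D DMSO-EGF or U0126 array at 48 h 3 of the 9 calls were made, and 14 were made without the U0126 array of 2D04 at 48 h. Of all probe sets 3.61%, 3.46% and 11.1% were called then, in that order, against 8.48% with all arrays. Without the low actin 5′ arrays the test called 4 larger and 7 smaller, with 10.9% of all called. GPNMB was not among the calls.

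Untreated control arrays were compared with 0 h to see how far the members drifted with time in low serum. In 2D 1 member probe set was higher late and 1 lower, while 1.92% of all probe sets rose and 1.7% fell. NEU1 read -0.75 and -0.55 (2D03) and -0.68 and -0.31 (2D04) in controls at 24 and 48 h, against -1.30, -1.31, -1.16 and -1.03 at 0 h. These did not overlap, and NEU1 was higher by 0.63 ± 0.14 (adjusted p = 0.0062; 0.054 without the 48 h control of 2D04). GLA read 0.28, -0.40, -0.16 and -0.14 late, against 0.26, 0.33, 0.56 and 0.24 at 0 h, and was lower by -0.45 ± 0.13 (adjusted p = 0.037). The 24 h control of 2D03 overlapped the 0 h arrays of GLA. The count was 1 without 0 h control 1, 2 or 3, the 48 h control of 2D03, or the 24 h or 48 h control of 2D04. In these settings 1.69% to 3.35% of all probe sets were called in either direction, against 3.62% with all arrays. With the replicate block 9 member probe sets were higher and 4 lower, against 5.55% and 6.28% of all. At 48 h alone, 3 member probe sets were higher than at 0 h and 1 was lower, while 1.95% of all probe sets rose and 2.37% fell. They were NEU1 (0.77, adjusted p = 0.0054), CTSD (0.84, adjusted p = 0.028), ASAH1 (0.35, adjusted p = 0.037) and GLA (-0.62, adjusted p = 0.015). With the block 11 were higher and 6 lower at 48 h, against 5.61% and 7.63% of all probe sets. At 24 h 0 passed (0.228% of all), and with the block 2 were higher (LIPA and NEU1) and 0 lower, against 1.43% and 0.96% of all. The drift of 2D controls in the middle window called 0 members and 0.0446% of all probe sets. At an unadjusted p under 0.05 there were 4 of 64 member probe sets and 1098 of all 22406.

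In 3D controls 12 member probe sets (8 genes) were higher late and 1 was lower, while 3.97% of all probe sets rose and 2.88% fell. IDS held 5 of the 12, with a lead difference of 0.68 (adjusted p = 0.048), and the others were of ASAH1, HEXA, LAMP2, NPC1, NPC2, PSAP and TPP1. GLA was lower, by -0.43 (adjusted p = 0.023). NPC2 read 0.46 and 0.70 at 24 and 48 h, against 0.01 and 0.11 at 0 h (0.52 ± 0.10, adjusted p = 0.0075), and NPC1 read 0.36 and 0.84, against 0.06 and 0.11 (0.51 ± 0.12, adjusted p = 0.018). NPC1 and NPC2 thus rose with time in untreated 3D cells and fell with U0126 against DMSO-EGF at the same late times. The counts rest on few arrays: 0 were called without the 48 h control or 0 h control 1, 2 without 0 h control 2, and 21 without the 24 h control. Of all probe sets 0%, 0.00893%, 0.692% and 15.3% were called then, in that order, against 6.85% with all arrays. ASAH1, HEXA, PSAP and TPP1 were called higher, and GLA lower, both in 3D drift and with U0126 against DMSO-EGF in 3D late. IDS and LAMP2 were not called with U0126 there. TPP1 read -0.22 and 0.43 in late 3D controls, against -0.50 and -0.45 at 0 h. The 3D controls of the middle window called 0 members, with 1 at an unadjusted p under 0.05.

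Set against the same controls at 0 h, late U0126 arrays had 27 member probe sets higher and 2 lower in 2D (11% and 11.2% of all probe sets), while late DMSO-EGF arrays had 1 higher, NEU1, and 0 lower (1.58% and 2.03%). In 3D, late U0126 arrays had 37 higher and 6 lower (20.1% and 17.6%), and late DMSO-EGF arrays 10 higher and 2 lower (4.19% and 2.63%). With the replicate block the 2D counts were 38 higher and 4 lower for U0126 (16.4% and 17.4% of all) and 6 higher and 5 lower for DMSO-EGF (5.2% and 7.33%). These comparisons share their 0 h arrays. GPNMB differed from control 0 h by 2.25 in 2D and 2.56 in 3D with U0126, and by 0.16 in 2D and -0.40 in 3D in late controls, which did not pass.

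**Figure D5:**
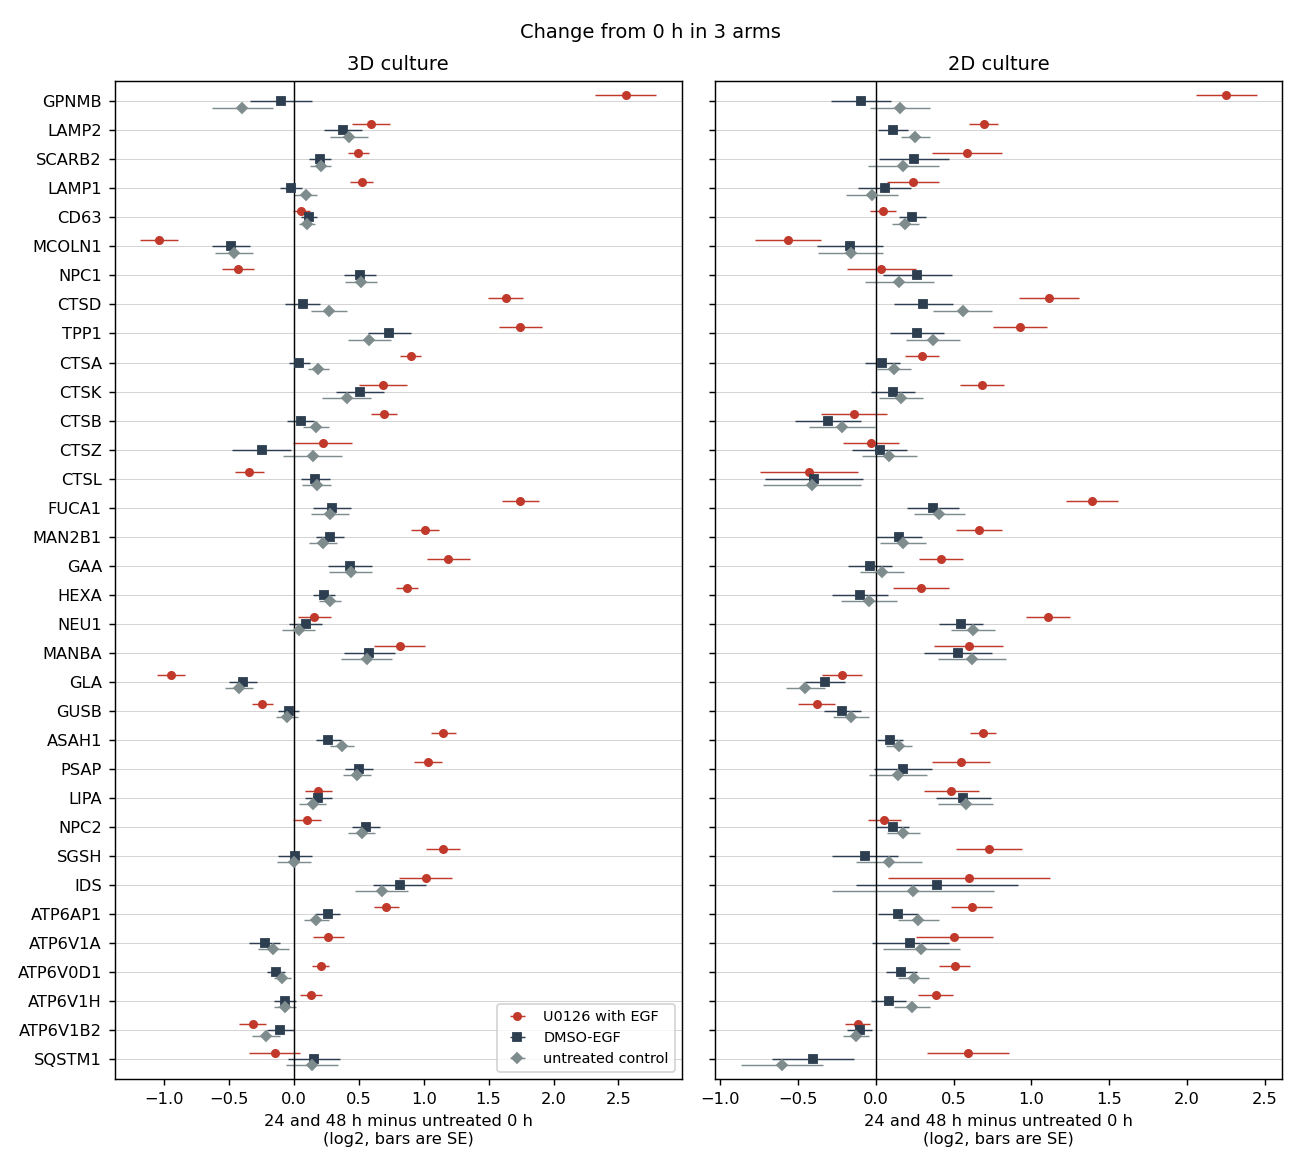
Late difference from control arrays at 0 h (log2, points, with SE bars) of the member lead probe sets in 3D (left) and 2D (right) for U0126, DMSO-EGF and control. The U0126 values spread furthest upward, to 2.56 for GPNMB in 3D, while the medians over all member probe sets are 0.415 with U0126, 0.15 with DMSO-EGF and 0.157 in control in 3D, and 0.379, 0.091 and 0.121 in 2D.

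Neither EGF nor the vehicle gave a member call. EGF against control called 0 of 64 member probe sets in all 3 windows of both cultures, and DMSO-EGF against EGF called 0 likewise. Each of these 12 comparisons also called 0 of all probe sets. At an unadjusted p under 0.05, EGF against control had 0, 0 and 1 member probe sets in the early, middle and late window in 2D and 2, 0 and 1 in 3D, and DMSO-EGF against EGF had 0, 0 and 1 in 2D and 0, 2 and 0 in 3D. Of all 22406 probe sets, 145, 474 and 146 reached it in 2D for EGF, and 155, 233 and 243 for DMSO-EGF against EGF. U0126 against DMSO at 0 h in 2D, after 30 min of inhibitor, called 0 members and 0 of all probe sets. There 1 member probe set and 192 of all had an unadjusted p under 0.05.

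Other genes of the pathway were read from lists. Of the MiT/TFE factors and nutrient-sensing regulators, 5 of 21 probe sets rose in 2D late and 0 fell, and 5 rose and 2 fell in 3D. These and the list counts that follow stand beside 5.34% higher and 4.99% lower over all probe sets in 2D and 16.2% and 13.6% in 3D. The factors themselves did not pass: the lead probe set of TFEB was at -0.04 in 2D and 0.22 in 3D, TFE3 at 0.09 and -0.08, and MITF at 0.20 and -0.12. FLCN, which restrains TFE3 and TFEB through the Rag GTPases, was at 0.16 and 0.47 without passing, and RRAGD, a Rag GTPase, was at -0.07 and 0.00 with another probe set lower in 3D (-0.43, adjusted p = 0.035). TSC2, a brake on mTORC1, was higher by 0.33 in 2D (adjusted p = 0.032) and 0.90 in 3D (adjusted p = 1.2e-06). The Ragulator subunit LAMTOR2, which holds Rag GTPases on the lysosome, was higher by 0.35 in 2D (adjusted p = 0.016) and 0.63 in 3D (adjusted p = 1.1e-04). LAMTOR3, a Ragulator subunit that also binds MEK, was higher by 0.22 in 2D (adjusted p = 0.030) and 0.37 in 3D (adjusted p = 0.0019), and TSC1, the partner of TSC2, by 0.50 in 3D (adjusted p = 0.0086).

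Hydrolases outside the members moved likewise in number, with 13 of 40 probe sets higher and 1 lower in 2D and 21 higher and 2 lower in 3D. CTSO, a cysteine protease, was higher by 1.49 ± 0.42 in 2D (adjusted p = 0.015) and 2.77 ± 0.23 in 3D (adjusted p = 3.9e-09). SMPD1, acid sphingomyelinase, was higher by 0.65 in 2D (adjusted p = 1.8e-05) and 0.95 in 3D (adjusted p = 7.3e-08), and 2 of 3 probe sets of IDUA, an iduronidase, in 3D by 1.17 and 0.61 (adjusted p = 1.4e-04 and 4.0e-06). CTSC, which activates granule serine proteases, fell by 0.52 in 2D (adjusted p = 0.014) and by 0.73 in 3D (adjusted p = 1.1e-06). Among other membrane and sorting genes 2 of 26 probe sets rose and 0 fell in 2D, and 16 rose and 1 fell in 3D. LAMP3 was higher by 2.00 ± 0.25 in 3D (adjusted p = 1.2e-06) and at 0.60 in 2D (adjusted p = 0.20; 0.0018 with the replicate block). The sialomucin CD164 was higher by 0.69 in 3D (adjusted p = 8.5e-07), as were the endolysosomal cation channel TPCN1 by 0.66 (adjusted p = 5.2e-04) and NAGPA, an enzyme that uncovers the mannose 6-phosphate tag of lysosomal enzymes, by 0.65 (adjusted p = 5.9e-04).

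The remaining V-ATPase genes had 0 of 30 probe sets called in 2D, with 3 at an unadjusted p under 0.05, beside 4600 of all 22406. With the replicate block 3 were higher and 2 lower in 2D, near the 10.5% and 10.4% of all probe sets. In 3D 5 were higher and 2 lower, a share of higher ones near that of all probe sets (16.2%). There the subunit ATP6V1G1 was higher by 0.47 (adjusted p = 7.4e-05) and the accessory subunit ATP6AP2 by 0.31 (adjusted p = 0.0017), 2 of 6 probe sets of ATP6V0E1 passed, and ATP6V0A2 was lower by -0.60 (adjusted p = 0.0021). Autophagy genes had 5 of 33 probe sets higher and 0 lower in 2D and 14 higher and 2 lower in 3D. OPTN, an autophagy receptor like p62, was higher by 0.69 in 2D (adjusted p = 0.022) and 1.05 in 3D (adjusted p = 8.7e-05). Another receptor, TAX1BP1, was higher by 0.59 in 3D (adjusted p = 1.1e-04), as were GABARAP, an autophagosome membrane protein, by 0.64 (adjusted p = 3.6e-07) and VPS11, a tethering subunit, by 0.77 (adjusted p = 2.2e-06). In 2D with the replicate block 13 autophagy probe sets were higher and 0 lower, against 10.5% and 10.4% of all probe sets.

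Melanosome genes were read because GPNMB and MITF are known from pigment cells, and 0 of 8 probe sets passed in either culture. At an unadjusted p under 0.05 there was 1 in 2D and 0 in 3D, beside 4600 of all 22406 probe sets in 2D. With the replicate block 1 passed in 2D, of the melanosome matrix gene PMEL (0.27, adjusted p = 0.020 with the block), where 10.5% of all rose. Of 13 probe sets of 8 macrophage and leukocyte markers, in which GPNMB is also known, 0 passed in 2D, with 0 at an unadjusted p under 0.05. In 3D 1 did, a probe set of PTPRC that was higher by 0.25 (adjusted p = 0.017), and the list median was 0.020 in 2D and -0.035 in 3D. As the deposited values are differences from a reference, they do not show whether any of these markers was at 0.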

How the data were processed

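RNA of cultured MDA-MB-231 cells was measured on 96 Affymetrix arrays of 1 colour. The authors deposited 1 value per probe set and array, read here as log2: the processing notes of the submitters list RMA, a summary that gives log2 signals. The files state neither base nor centring. Medians of the arrays were -0.07 to 0.04 and single values -5 to 5.7, so each probe set was centred on an unknown reference. Only differences are therefore given, and no filter on low values was possible. Of 22930 probe sets 524 were array controls. A further 2866 had no annotated symbol here and 125 had several, and neither kind was named. No pair of arrays was identical (highest correlation 0.976).

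Every probe set was fitted in limma 3.58.1 under R 4.3.3 (lmFit, then eBayes allowing a trend of variance). P-values were adjusted by the Benjamini-Hochberg method over all 22406 probe sets, and a call needed an adjusted p under 0.05. The 2D fit had 31 means and 33 residual degrees of freedom, and the 3D fit 15 and 17. The fit of both cultures, for differences between them, had 39 terms, among them a term for each series and time, and 45 residual degrees of freedom. The main 2D fit had no term for series, so standard errors of these fits are not of like models. Errors are standard errors of these fits, whose precision is limited by the number of arrays. Single probe sets whose names carry an x can also match other transcripts. The script was checked on simulated data.

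Repeat numbers pair the 2D arrays through the series label. Over 465 pairs of groups, deviations of equal-numbered arrays correlated at 0.197 to 0.79 (median 0.6), and each 2D comparison was fitted with this pairing as a replicate block too. The members and lists were chosen with earlier results of these data known. All 34 members were to be named, each by its lead probe set, with values by array for GPNMB, for the 8 with the smallest adjusted p in 2D late and for members called in opposite directions. Other lists were limited to up to 4 genes with the smallest adjusted p, the MiT/TFE genes TFEB, TFE3 and MITF, FLCN, RRAGD and 3 ERK readouts. Values by array for further members, such as NEU1, GLA, CTSA and MCOLN1, were added after their values were seen. Promoter windows came from RefSeq tables (GRCh38.p14). Alternatives were probe set rules, normalization, array weights, the block, each series alone, each array left out and, chosen after seeing the data, the omission of 2 arrays of low actin 5′ signal.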

Additional observations from a re-analysis of the deposited data

Results flagged for a closer look

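The effect of U0126 differed between cultures or between windows for 13 member probe sets in a direct test of that difference (limma, adjusted p under 0.05). The late effect was larger in 3D than in 2D for CTSA (0.6 on the log2 scale) and CTSD (0.76). It was lower in 3D than in 2D for CTSL (-0.47), GLA (-0.66), a probe set of LAMP2 (-0.46), NEU1 (-0.49), NPC1 (-0.71), NPC2 (-0.4) and the lead probe set of SQSTM1 (-1.3). Within 2D, the late effect exceeded the middle one for ATP6V0D1 (0.47), FUCA1 (0.77), GAA (0.68) and GPNMB (1.09). Only the 4 untreated 2D control arrays at 0 h were tested for an outlying value, for each of the 34 lead probe sets. No array stood apart there.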

How the results depend on the processing

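Of the 113 combinations of 13 member counts with settings other than leaving out 1 array, 94 stayed within 1.5 times the reported count and 19 did not. Percentages in brackets give the share of all probe sets called in either direction under that setting. The middle 2D count of 5 (6.46%) was 3 with 1 probe set per gene (7.25%) and 3 with array weights (3.74%). It was 11 under the replicate block (16.7%), 11 for 2D03 alone (5 higher, 6 lower, 12.5%) and 1 for 2D04 alone (3.28%). The late 2D count of 21 (10.3%) was 32 with the replicate block (20.8%) and 34 with the block and without the low actin 5′ arrays (23.5%). The middle 3D count of 5 (7.93%) was 8 with quantile normalization (9.74%) and 9 with array weights (15.8%). The late drift count of 2 in 2D controls (3.62%) was 4 with array weights (5.45%), 13 with the block (11.8%), 0 in 2D03 alone (0.397%) and 13 in 2D04 alone (8.26%). The late-minus-middle count of 4 (1.78%) was 2 with median centring (1.65%), 0 with array weights (0.732%) and 18 with the block (8.15%). It was 2 in 2D04 alone (2.19%), 2 without the low actin 5′ arrays (1.45%) and 11 with the block as well (5.7%). At single times, examined after seeing the data, the 2D count of 1 at 8 h (1.38%) was 3 with the replicate block (5.69%). The count of 1 at 12 h (1.57%) was 6 with the block (7.96%). Leaving out single arrays gave 3 to 12 for 2D middle (3.5% to 12.1%) and 15 to 19 for 2D late (7.4% to 9.87%). In 3D it gave 1 to 8 for middle (4.23% to 11.4%) and 28 to 33 for late (22.8% to 27.7%). Drift counts were 1 to 3 in 2D (1.69% to 3.35%) and 0 to 21 in 3D (0% to 15.3%). The counts were 0 to 14 for late minus middle (1.01% to 4.36%) and 3 to 14 for the difference between cultures (3.46% to 11.1%). Of 713 recomputed calls of single genes 612 held, 101 lost significance and 0 reversed. The cause of these shifts was not tested. In 3D each arm has 1 array per time, so the window errors include change with time.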
